A study of Mus musculus with 4 samples.

Results

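The epithelial membrane protein genes Emp1, Emp2 and Emp3 and their paralog Pmp22 were examined in B16F10 melanoma cells with and without knockdown of lamin A/C. The rows of the count matrix with these 4 symbols were taken, out of 24421 symbols in all. The family had been chosen by the counts of Emp1, which were nearly lost in the knockdown cells. The values of the members in this contrast are therefore given as a description, with no test. The series held 4 bulk libraries of B16F10, a mouse melanoma line of the C57BL/6 strain. In shControl (2 libraries) the cells stably carried a lentiviral control vector, which the study's methods list as empty, and in shLmna (2 libraries) a vector expressing an shRNA against Lmna, which encodes the nuclear lamins A and C. Both groups had been transduced and selected with puromycin, so the hairpin cells differ from the controls both in the target of the hairpin and in carrying a hairpin at all. It is not stated whether the 2 libraries within a group are separate cultures, so p-values measure only the spread between these libraries, which may be technical.

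EMP1, EMP2, EMP3 and PMP22 are small glycoproteins that cross the membrane several times and share a fold with the claudins of tight junctions. PMP22 is a component of compact myelin in peripheral nerve, and a change in its gene dosage causes inherited neuropathies. EMP2 is known to control the surface delivery of integrins, and EMP1 and EMP3 are known from epithelial, neural and tumor cells. Melanocytes and Schwann cells, which make peripheral myelin, both descend from the neural crest.

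RNA was profiled by bulk MARS-seq, in which transcripts are counted at their 3′ ends, and each gene was counted over its last 1000 bases and the 100 bases after them. On the GRCm38 assembly (mm10), Emp1 lies at chr6:135362545-135383173 on the plus strand. Its representative transcript has 5 exons, and the counted window lies whole in the 3′ UTR, in the last exon. Emp2 lies at chr16:10281749-10313968 on the minus strand and Pmp22 at chr11:63128982-63159547 on the plus strand, and their windows also lie in the 3′ UTR. Emp3 lies at chr7:45918023-45921404 on the minus strand and has a transcript of 784 bases, shorter than the window, so that its coding exons were counted too. The 4 genes share an exon number of 5 but not their 3′ ends. Of the 31-base stretches of the 4 windows, 0% occurred in annotated transcripts of another gene, and 0 annotated genes overlapped a window on either strand.

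The sequences around the transcription start are shown for the 3 members with more than 1 count, because the paralogs differed in level and in how far they moved. Each sequence is from RefSeq on GRCm38.p6 and runs 5′ to 3′ on the strand of the gene. It spans 250 bases before to 50 bases after the first start that RefSeq annotates. The gene span of Emp1 given above is from GENCODE and begins further upstream, at 135362545. The whole Emp1 sequence shown here therefore lies inside that span, and the annotations differ in where Emp1 starts. Capitals mark a match to the letters TGAGTCA of the AP-1 motif, CATTCC of the TEAD motif or TATAAA of the TATA box, each searched on both strands.
Emp1 (chr6:135362681-135362980, plus): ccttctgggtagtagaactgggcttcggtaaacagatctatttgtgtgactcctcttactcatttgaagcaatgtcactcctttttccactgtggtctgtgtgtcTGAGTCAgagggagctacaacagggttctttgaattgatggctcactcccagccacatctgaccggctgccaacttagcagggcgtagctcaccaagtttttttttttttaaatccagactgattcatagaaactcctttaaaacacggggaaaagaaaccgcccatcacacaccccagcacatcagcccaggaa
Emp3 (chr7:45921377-45921676, minus): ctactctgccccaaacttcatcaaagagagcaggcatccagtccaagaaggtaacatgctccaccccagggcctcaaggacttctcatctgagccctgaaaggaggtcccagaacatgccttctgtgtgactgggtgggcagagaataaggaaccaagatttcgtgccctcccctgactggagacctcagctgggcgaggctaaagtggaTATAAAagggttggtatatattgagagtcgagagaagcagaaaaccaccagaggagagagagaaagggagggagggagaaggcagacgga
Pmp22 (chr11:63128732-63129031, plus): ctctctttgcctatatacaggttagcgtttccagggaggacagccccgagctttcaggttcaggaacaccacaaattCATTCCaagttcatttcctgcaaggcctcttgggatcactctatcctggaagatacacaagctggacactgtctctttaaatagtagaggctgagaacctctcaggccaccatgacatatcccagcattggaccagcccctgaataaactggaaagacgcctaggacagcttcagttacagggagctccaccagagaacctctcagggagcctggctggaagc
At these starts the letters of AP-1 were found in Emp1, those of the TATA box in Emp3 and those of TEAD in Pmp22, and at the other annotated starts (1 of Emp1, 1 of Emp3, 3 of Pmp22) and the start of Emp2 none of these letters were found. Among 32851 RefSeq promoters of this length, read on both strands, 5.20% held the AP-1 letters, 13.6% those of the TATA box and 14.7% those of TEAD. The letters TCATGTG, the M-box bound by the melanocyte factor MITF, were in 3.77% of all promoters and in 0 of the 9 promoters annotated for the 4 genes. A match of letters is a description and says nothing about binding. GC content was 46.7% and 48.0% at the 2 starts of Emp1 (5 and 3 CpG pairs), and 52.7% and 57.3% at those of Emp3 (4 and 2 CpG pairs), against medians of 52.7% and 7 CpG pairs over all promoters. The first start of Pmp22 had 50.7% and 3 CpG pairs, while its other 3 starts had up to 72.3% and 18 to 30 CpG pairs. The start of Emp2 had 65.7% and 16 CpG pairs.

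Library totals ranged from 2494880 counts in shLmna 1 to 3808843 in shControl 2. Lmna itself was examined as a check of the labels. It had 2826 and 2684 counts in shControl against 331 and 480 in shLmna, and its log2 fold change (log2FC, shLmna over shControl) was -2.61 (SE 0.142, adjusted p 7.94e-06 by the quasi-likelihood test of edgeR). Of the melanocytic markers, Pmel, Dct, Tyrp1, Mlana, Sox10 and Mitf were counted in every library and summed, with Tyr, to between 20052 and 24522 CPM, counts scaled by TMM to a common library size. Tyr, the tyrosinase of pigment synthesis, had only 1, 1, 3 and 7 counts. Of the markers of other cell types, the Schwann cell markers summed to 276 and 362 CPM in shControl and 170 and 183 CPM in shLmna, nearly all from Mbp. The epithelial, fibroblast, endothelial and leukocyte markers were low. The 6 epithelial markers summed to 2.94 to 5.87 CPM in shControl and 0.394 to 1.63 CPM in shLmna, with Epcam, Krt5 and Krt14 at 0 and Krt8 at 16 and 9 counts against 0 and 1. The 6 fibroblast markers summed to 13.3 to 17.3 against 10.9 to 11.4 CPM, with Dcn and Lum at 0, and the 8 endothelial and leukocyte markers to 16.01 to 18.5 against 11.4 to 13.6 CPM, with Cdh5, Kdr, Ptprc and Cd3e at 0. The sums of all these other cell types were lower in both shLmna libraries, as Emp1 was. Their part in the values of Emp1 was not tested.

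Emp1 was nearly absent from the counts of shLmna cells. It had 171 and 205 counts in shControl 1 and 2, against 3 and 5 counts in shLmna 1 and 2. After TMM scaling the level was 53.7 ± 1.36 CPM (SD, n = 2) in shControl and 1.27 ± 0.124 CPM (SD, n = 2) in shLmna, so that 2.36% of the control level was left. Both shLmna libraries lay far below both shControl libraries, and the libraries within each group were close to each other. The fitted log2 fold change was -5.35 (SE 0.296). From the summed counts, 376 against 8, the control level was 41.8 times that of shLmna, with a 95% interval for counting error alone of 21.01 to 97.6. At 3 and 5 counts, the shLmna level is close to the floor of 3 counts (1.18 CPM in shLmna 1, 0.815 CPM in shLmna 2), and it is known with little precision. In bulk RNA, fewer cells that express the gene and less of its RNA per cell cannot be told apart. Nor can a transcript end outside the counted window, since only that window was counted. In the last 50 bases of its representative transcript, Emp1 held neither AATAAA nor ATTAAA, the letters of polyadenylation signals. Emp2 held ATTAAA there, and Emp3 and Pmp22 held AATAAA. Among 9150 tested genes, 39 had a lower fitted log2 fold change.

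Emp3 was by far the most abundant member in these melanoma cells and differed much less between the groups. It had 3621 and 4213 counts in shControl against 2045 and 3009 in shLmna. These equal 1118 and 1124 CPM in shControl against 806 and 817 CPM in shLmna. The groups did not overlap, with means of 1121 ± 4.58 against 812 ± 7.75 CPM (SD, n = 2). For counting error alone, the intervals spanned 1082 to 1159 CPM over the shControl libraries. They spanned 771.6 to 846.9 CPM over the shLmna libraries. These intervals are wider than the SDs, so the SDs of 2 libraries are no yardstick for the difference between the groups. The log2 fold change was -0.47 (SE 0.108), and 72.4% of the control level was left. In shControl it ranked 121 among the tested genes by level.

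Pmp22 was the lowest of the 3 tested members in shControl. It was counted 85 and 103 times in shControl, against 56 and 67 times in shLmna, or 26.2 and 27.5 CPM against 22.1 and 18.2 CPM. Each shLmna library was lower than each shControl library, but the 95% counting intervals of the libraries overlapped, from 20.96 to 33.3 CPM over the shControl libraries and from 14.1 to 28.7 CPM over the shLmna libraries. The log2 fold change was -0.43 (SE 0.216), and 75.0% of the control level was left. When shLmna 2 was left out it became -0.27, and when shLmna 1 was left out -0.56.

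Emp2 was not detected beyond 1 count. It had 0 and 1 counts in the control libraries and 0 in each knockdown library, and it was not tested. The floor of 3 counts, which a count of 0 allows, was 0.926 CPM in shControl 1, 1.18 CPM in shLmna 1 and 0.815 CPM in shLmna 2, for counting error only. No fold change was computed, since both groups were at or under the floor.

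**Figure D1:**
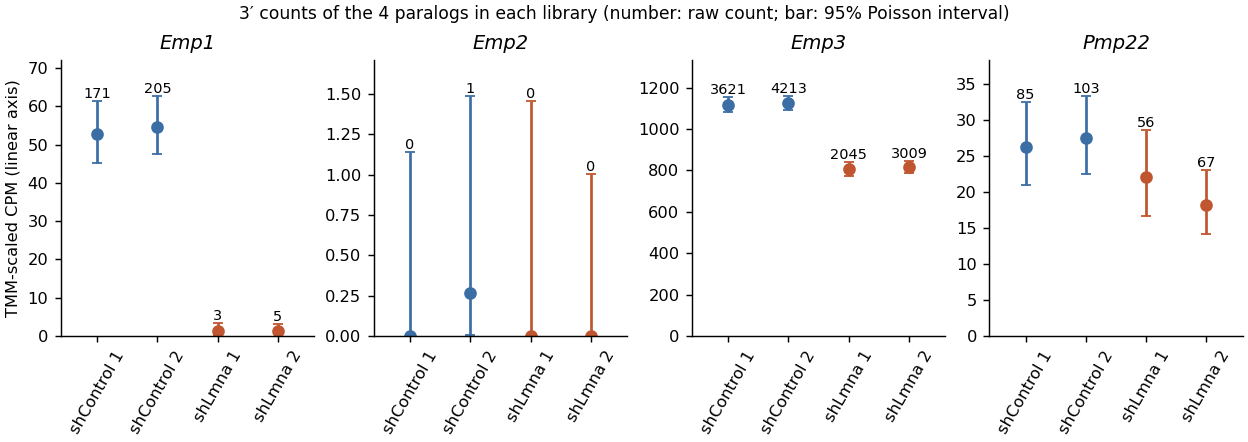
TMM-scaled CPM (linear axis from 0, with its own range in each panel) of the 4 paralogs in each of the 4 libraries, with shControl in blue and shLmna in orange. Points are single libraries, bars are two-sided 95% Poisson intervals for counting error, which for a count of 0 reach slightly above the floor of 3 counts, and the number above each is the raw count. Emp1 drops from 171 and 205 counts to 3 and 5, Emp3 and Pmp22 keep 72.4% and 75.0% of their control level, and Emp2 has 1 count in all.

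The order of the members by level changed between the groups. It was Emp3, Emp1, Pmp22 and Emp2 in shControl, and Emp3, Pmp22, Emp1 and Emp2 in shLmna. These levels count 3′ ends, of which a transcript has 1 whatever its length, and they were not divided by length. In shControl the counting intervals of Emp1 (45.2 to 62.7 CPM over the libraries) and Pmp22 (20.96 to 33.3 CPM) did not overlap. In shLmna those of Emp1 (0.244 to 3.46 CPM) and Emp2 (0 to 1.45 CPM, from 0 counts) did. The order of the last pair therefore cannot be told at this depth.

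As a share of the family's counts, Emp1 made up 4.41% in shControl 1 and 4.53% in shControl 2. In shLmna 1 and 2 it made up 0.143% (95% exact binomial interval 0.0294% to 0.416%) and 0.162% (0.0527% to 0.378%). Emp3 made up 93.4% and 93.2% of the family in shControl, and 97.2% and 97.7% in shLmna. The share of Pmp22 was between 2.17% and 2.66% in the 4 libraries, without separating the groups. Summed over the family, the level was 1202 ± 7.01 CPM in shControl and 833 ± 5.13 CPM in shLmna (SD, n = 2), and most of that difference in CPM came from Emp3. The count ratio of Emp3 to Emp1 was 21.2 and 20.6 in shControl and 682 and 602 in shLmna, while that of Emp3 to Pmp22 was between 36.5 and 44.9 in all 4 libraries.

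Genes were called by an edgeR adjusted p under 0.05, a log2 fold change over 1 in size and a mean normalized count over 5, which 7.64% of the 9150 tested genes met, 5.88% as lower and 1.76% as higher. Of the 3 members in the fit, Emp1 lay past the fold limit of this rule, which the choice of the family fixes, and Emp3 and Pmp22 lay inside it. All 3 had both shLmna libraries below both shControl libraries, as did 30.6% of the tested genes, and in either direction the groups did not overlap for 60.1%. The family was chosen with this contrast in view, so these counts describe its members and nothing more is read from them.

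The members differed in the base composition of the end that was counted. GC content of the last 1000 transcript bases (the whole 784 bases for Emp3) was 36.3% for Emp1, 41.9% for Pmp22, 47.9% for Emp2 and 56.9% for Emp3, against a median of 46.9% over the tested genes. When the tested genes were divided into 10 equal groups by GC content, Emp1 fell in the lowest, from 26.3% to 37.0% GC, in which 32.3% were called lower. In the group of Pmp22 (40.0% to 42.4%) it was 4.06%, and in that of Emp3 (56.5% to 80.0%) 2.21%. With a correction for GC content in each library, the log2 fold change of Emp1 was -5.24, that of Pmp22 -0.51 and that of Emp3 -0.38. This correction removes only the average trend with GC content in each library, and the median log2 fold change of the lowest group was -0.369. It therefore cannot tell how far GC content bears on the value of Emp1, which was not tested.

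**Figure D2:**
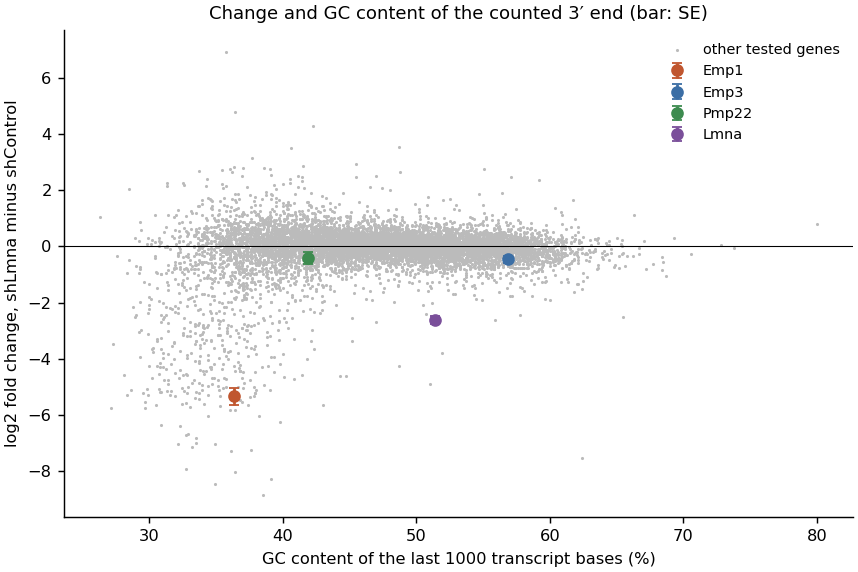
Log2 fold change (shLmna minus shControl) against GC content (%) of the last 1000 transcript bases. Grey points are tested genes, colored points are Emp1, Emp3, Pmp22 and Lmna, and bars are SE. Emp1, at 36.3% GC and -5.35, lies among the many strongly lowered genes of low GC content, while Emp3 lies at 56.9% GC and -0.47.

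Under 11 other ways of processing, Emp1, Emp3 and Pmp22 were lower in shLmna each time. All of these reuse the libraries by which the family was chosen. They show only how far the values depend on processing and add no support. With any 1 library removed, the log2 fold change of Emp1 stayed between -5.45 and -5.27, and that of Emp3 between -0.47 and -0.45. In the counts recovered from the authors' normalized table, Emp1 had 163 and 196 counts in shControl against 2 and 3 in shLmna, and a log2FC of -5.92. In the authors' batch-corrected log2 values Emp1 stood at 8.42 in both shControl libraries and at 7.42 in both shLmna libraries, a difference of only -1.01. The lowest value of any gene in that table was between 7.01 and 7.08 in each library, so that Emp1 stood near the lowest value of the table.

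**Figure D3:**
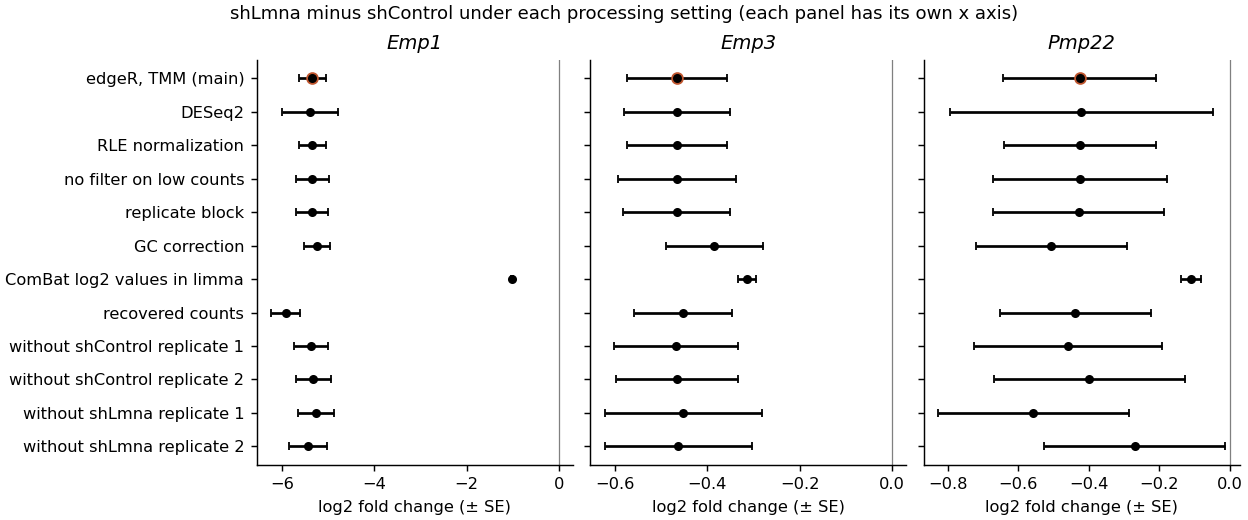
Log2 fold change (shLmna minus shControl, x axis, different for each panel) of Emp1, Emp3 and Pmp22 under the edgeR fit and 11 alternatives (y axis). Points are estimates and bars are SE. Emp1 lies between -5.92 and -5.24 in all settings on counts and at -1.01 in the batch-corrected values, and Pmp22 ranges from -0.56 to -0.11.

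To describe which other transcripts behaved like Emp1, the tested genes were ranked by the Euclidean distance of their centred log2 CPM over the 4 libraries from that of Emp1. The closest were Cnot6 (distance 0.237), Nr2c2 (0.248), Dhx15 (0.388), B230219D22Rik (0.396) and C330027C09Rik (0.405). Cnot6, a deadenylase of the CCR4-NOT complex, had 232 and 282 counts in shControl against 6 and 8 in shLmna. Dhx15, an RNA helicase of the spliceosome, had 415 and 631 against 13 and 15. Nr2c2, a nuclear receptor, had 119 in each shControl library and 1 and 2 in shLmna, and the ratio of the scaled sums was 70.6 (95% counting interval 23.9 to 344.9). B230219D22Rik had 79 and 128 against 1 and 1, a ratio of 92.1 (25.2 to 765.8), and C330027C09Rik had 115 and 169 against 2 and 5. GC content of the counted ends of these 5 genes was between 28.6% and 38.2%. Likeness over 4 libraries mostly reflects the size of the difference between the groups.

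The genes around the members on their chromosomes were then listed, a choice made after the values were seen. Of 5 tested genes with a start within 500000 bases of that of Emp1, 0 were lower by the edgeR adjusted test and 1 was higher. The nearest, Hebp1, which encodes a heme-binding protein, had 15 and 13 counts in shControl against 15 and 15 in shLmna. Ddx47, an RNA helicase gene, had 591 and 653 against 474 and 688 counts, with a log2FC of 0.07 (SE 0.116). Apold1 rose from 26.1 to 43.7 CPM (log2 fold change 0.74, adjusted p 0.0227 by edgeR). All 5 have their start at lower coordinates than Emp1.

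Around Emp3, 4 of 18 tested neighbors were lower and 1 higher by the same test. The largest differences were those of Lmtk3, with 13 and 14 counts in shControl against 2 and 2 in shLmna (ratio of the scaled sums 6.01, 95% counting interval 2.09 to 23.6, adjusted p 0.0259 by edgeR), and Car11, with 26 and 46 against 6 and 17 (log2FC -1.48, SE 0.416, adjusted p 0.0396 by edgeR). Sphk2, a sphingosine kinase gene, had -0.58 (SE 0.154, adjusted p 0.0318 by edgeR). Rpl18, a ribosomal protein gene, had a log2FC of -0.76 (SE 0.102, adjusted p 0.000959 by edgeR). Tmem143, the nearest, was higher with 0.77 (SE 0.173, adjusted p 0.0157 by edgeR). Around Pmp22, 0 of 3 tested neighbors passed, and their log2 fold changes lay between -0.27 and 0.00. By this test 15.2% of all tested genes passed, 9.74% lower and 5.48% higher.

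**Figure D4:**
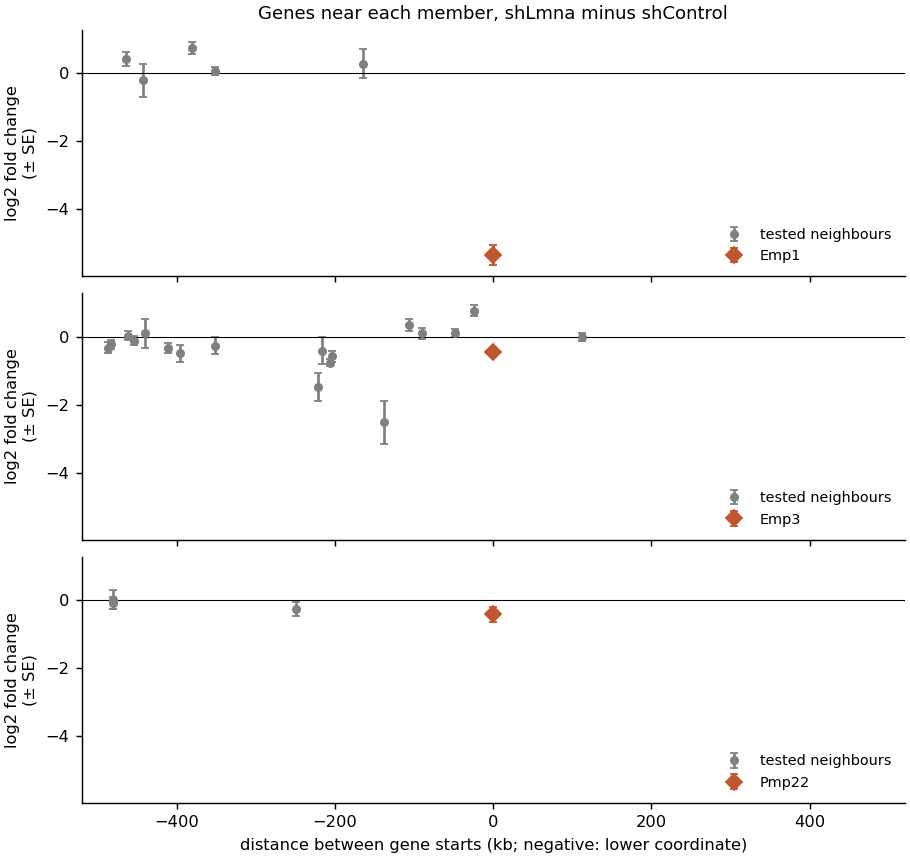
Log2 fold change (shLmna minus shControl, y axis, bars are SE) of tested genes whose start lies within 500000 bases of the start of Emp1, Emp3 or Pmp22, by distance (kb, x axis). Diamonds mark the members. The 5 tested neighbors of Emp1 lie between -0.21 and 0.74, far above Emp1 at -5.35.

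Most of the wider relatives of the family were nearly silent in these cells, but Cldnd1 stood at 66.0 CPM in shControl. Of 45 claudin-type genes in the matrix (claudins, Perp, Lim2, the Cacng subunits and others), 33 had no count in any library and 2 were tested. Cldnd1, a claudin-domain gene, had 194 and 270 counts in shControl against 130 and 218 in shLmna, a log2FC of -0.25 (SE 0.160). Cldn12 had 2 and 52 counts in shControl against 23 and 27 in shLmna, so that the spread within shControl was larger than the difference between groups. Neither passed the edgeR adjusted test, 0 of the 2 had an unadjusted p under 0.05, and DESeq2 also gave 0. Without shControl 2, Cldn12 passed. Perp, a p53 target of desmosomes, had 1 and 2 counts in shControl against 0 and 2 in shLmna.

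Tetraspanins, an unrelated family of membrane organizers with a similar number of membrane passes, were listed for comparison. Of 18 tested, 2 were lower, 0 higher and 16 did not pass the edgeR adjusted test, which 9.74% of all tested genes passed as lower and 5.48% as higher, with a median log2 fold change of -0.15 against -0.00100 over all tested genes. Cd63, a melanosome and endosome protein and the most abundant of them, stood at 1680 ± 132 CPM in shControl and 1976 ± 128 CPM in shLmna (SD, n = 2; log2 fold change 0.23, SE 0.110). Tspan4 had a log2FC of 0.01 (SE 0.119). Tspan12, known as a partner of Norrin signaling, had 49 and 98 counts in shControl against 0 and 7 in shLmna, with a log2FC of -4.18 (adjusted p 0.00156 by edgeR). Without shLmna 2 the remaining shLmna library had 0 counts, so that only a level at least 17.4-fold lower (floor of 3 counts in shLmna 1) is measured, and DESeq2 put the adjusted p at 0.0557, the highest over the alternatives, which began at 8.09e-21. GC content of its counted end was 31.6%. Tspan17 was lower, with a log2FC of -0.73 (adjusted p 0.0292 by edgeR), which did not pass with DESeq2 or when either shLmna library was left out.

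Proteins reported to bind or process EMP and PMP22 proteins were examined next. Of 11 tested, 3 were lower, 1 higher and 7 did not pass the edgeR adjusted test, and the median log2 fold change was -0.18. Among all tested genes the shares were 9.74% lower and 5.48% higher, and the median was -0.001. Among chaperones and trafficking factors, Canx, which encodes calnexin, a chaperone that binds PMP22 in the endoplasmic reticulum, had 209 and 380 counts in shControl against 27 and 48 in shLmna. Its level was 83.0 ± 26.1 CPM in shControl and 11.8 ± 1.69 CPM in shLmna (SD, n = 2), with a log2FC of -2.79 (SE 0.258, adjusted p 0.000104 by edgeR), which passed under all 11 alternatives. Rer1, a Golgi retrieval factor, did not pass, with 245 ± 17.3 against 224 ± 17.5 CPM.

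Among junction and adhesion proteins, Tjp1, which encodes the tight junction scaffold ZO-1, had 19 and 35 counts in shControl against 0 and 1 in shLmna. The ratio of the scaled sums was 48.1, with a 95% counting interval of 8.27 to 1933 (adjusted p 0.00176 by edgeR). Itgb1, the integrin beta 1 gene, was close in both groups, at 335 ± 6.49 and 316 ± 6.27 CPM. Itga6, the integrin alpha 6 gene, was higher, at 39.1 ± 5.43 in shControl and 63.1 ± 3.26 CPM in shLmna (log2 fold change 0.69, adjusted p 0.0206 by edgeR). The kinase gene Src was lower, from 97.6 ± 13.1 to 62.2 ± 3.47 CPM (log2 fold change -0.65, adjusted p 0.0174 by edgeR). Neither Itga6 nor Src passed when either shLmna library was left out, and Itga6 did not pass without shControl 2 or with DESeq2. GC content of the counted ends of Canx and Tjp1 was 37.4% and 34.4%.

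Transcription regulators of Pmp22, known from Schwann cells, were listed as well. Of 8 tested, 2 were lower, 0 higher and 6 did not pass, with a median log2 fold change of -0.15. Over all tested genes, 9.74% passed as lower and 5.48% as higher, with a median of -0.001. Sox10, a neural crest factor that activates Pmp22, had 5083 and 6914 counts in shControl against 2131 and 3676 in shLmna. Its log2 fold change was -0.89 (SE 0.130, adjusted p 0.00162 by edgeR), and it passed under all 11 alternatives. Tead2, a partner of YAP, was lower with -0.82 (SE 0.177, adjusted p 0.0130 by edgeR), but not when either shLmna library was left out. Yap1 had 300 and 354 against 238 and 424 counts, a log2FC of 0.17 (SE 0.141). Egr2, the main myelination factor, had 1 count in all. Of the Schwann cell markers, Mbp, a myelin protein gene, was lower with -0.88 (SE 0.150, adjusted p 0.00413 by edgeR). The 6 Schwann cell markers summed to 276 and 362 CPM in shControl and 170 and 183 CPM in shLmna, nearly all from Mbp, and their part in the values of Pmp22 was not tested.

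**Figure D5:**
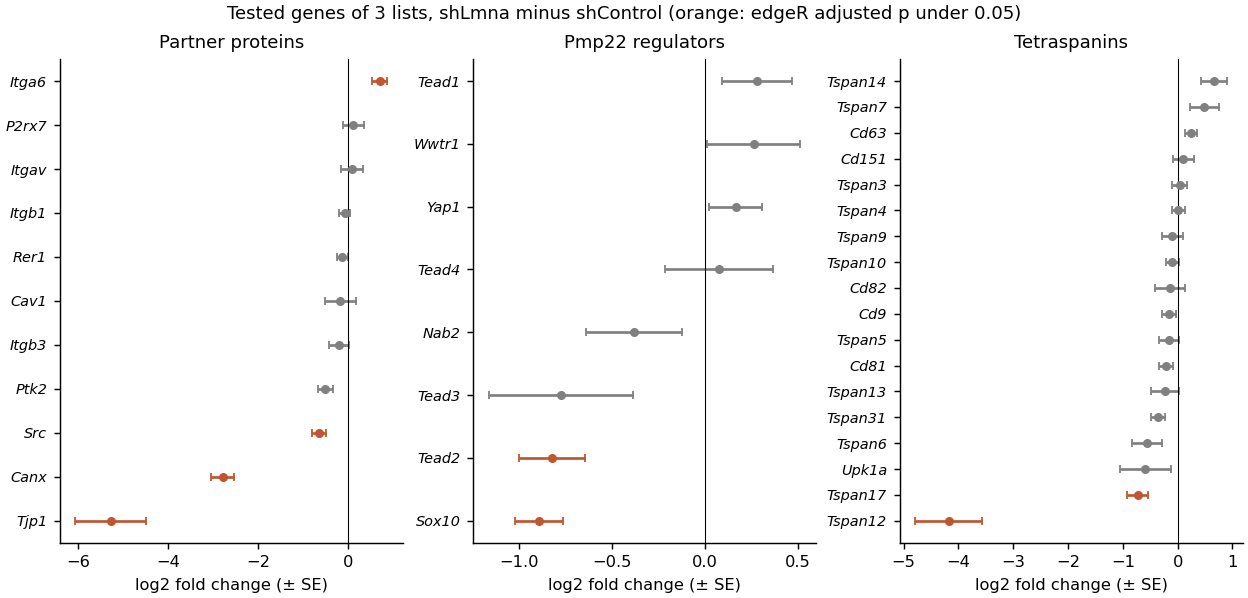
Log2 fold change (shLmna minus shControl, x axis, different for each panel) of the tested genes among partner proteins, Pmp22 regulators and tetraspanins. Points are edgeR estimates, bars are SE, and orange marks an adjusted p under 0.05. Canx, Tjp1 and Tspan12 lie furthest to the left, where the fitted position of Tjp1, with 0 and 1 counts in shLmna, depends on the prior count, and Itga6 is an orange point to the right of 0.

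The melanocytic markers moved in both directions. Mlana (log2 fold change 0.51, adjusted p 0.00510 by edgeR) and Pmel (0.41, 0.0258) were higher in shLmna, Sox10 was lower as above, and Dct, Tyrp1 and Mitf did not pass, with log2 fold changes of -0.02, -0.14 and -0.37. Tyrp1 had 6028 and 16335 counts in the shLmna libraries.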

How the data were processed

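RNA of B16F10 cells was profiled by bulk MARS-seq in 2 shControl and 2 shLmna libraries. According to the study's methods, the authors trimmed reads with Cutadapt, aligned them to mm10 with STAR 2.4.2a and counted the 3′ ends of RefSeq genes with HTSeq after marking duplicates of molecular identifiers. The deposited matrix holds raw counts per gene symbol. Whether duplicates had been collapsed in it is not stated, while the counting intervals take each count as a separate molecule. A second deposited table holds a signal, the count divided by a DESeq2 size factor per library, in which 100% of values were whole multiples of a step (tolerance 0.02). The edgeR test on the counts recovered from it called 539 genes lower and 160 higher. It also holds the authors' p-values, which were not used. Another deposited table holds log2 values that the authors had corrected with ComBat for batches that are not named.

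Differences were tested with the edgeR 4.0.16 quasi-likelihood test in R 4.3.3 (TMM, filterByExpr, two-sided, Benjamini-Hochberg over 9150 genes). Standard errors were derived from its F statistic. CPM are TMM-scaled. Alternatives were DESeq2 1.42.0, RLE scaling, no filter, a replicate block, a GC correction (lowess of span 0.3 per library), limma 3.58.1 on the ComBat values, recovered counts and leaving out each library. Transcripts and positions came from GENCODE M21, and GC content was found for 99.5% of tested genes. The fits were also run on simulated counts, which had the same variability for all genes and no trend with GC content, unlike these data. That run therefore cannot tell how well the fits hold here. Replicates differed by more than sampling noise (chi-square per degree of freedom 6.96 and 3.91) and were kept as separate samples.

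Members and lists were chosen with earlier results of these data known. Genes named are the 4 members, Lmna, list genes with an adjusted p under 0.05, the 2 most abundant tested genes of each of the 4 lists of relatives, partners and regulators, Yap1, Sox10, Itgb1, Perp, the melanocytic markers and the 5 genes closest to Emp1. Other genes, neighbors included, were named after their values were seen. List genes outside this rule are given by counts only, and some values are not reported here.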

Additional observations from a re-analysis of the deposited data

How the results depend on the processing

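Emp1, Emp3 and Pmp22 were lower in shLmna under all 11 alternatives. These reuse the libraries by which the family was chosen, so this adds no support. Lmna was lower in each, with log2 fold changes from -2.75 to -1.54, and passed the adjusted test in each that kept all libraries. In the ComBat values the log2 fold change was -1.01 for Emp1, -0.31 for Emp3 and -0.11 for Pmp22, and 28 genes were called lower and 2 higher, against 538 and 161. The GC correction moved Emp1 to -5.24 and Emp3 to -0.38, and recovered counts moved Emp1 to -5.92. DESeq2 called 393 genes lower and 74 higher. The number of tetraspanins past the adjusted test, 2 with edgeR, was 0 with DESeq2, 4 with the replicate block and 6 with the ComBat values. The causes of these shifts were not tested. With each library removed in turn, 60 to 232 genes were called higher, and 0 to 1 claudin-type genes, 1 to 4 tetraspanins, 2 to 5 partner genes and 1 to 2 Pmp22 regulators passed the test, where the remaining library of a group is assumed to vary like the other group. Without shLmna 1 the higher calls were 71, and without shLmna 2 they were 60, with 2 partner genes and 1 regulator left in either case. Tetraspanins past the test were 4 without shControl 1 and 1 without shLmna 2, and 1 claudin-type gene, Cldn12, passed without shControl 2.

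The replicate numbers of the titles are not said to mark a shared culture or day. The correlation of the difference between replicates 1 and 2 across the groups was 0.0129 over 9150 genes. This value cannot settle whether libraries of the same number shared a culture or a day. With the replicate block the log2 fold change of Emp1 was -5.35, and 608 genes were called lower and 209 higher. Emp2 could not be given a value under any setting, with 1 count in all. Depth limits what can be said of Emp1 in shLmna, of Emp2 and of the claudin-type genes.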
